A study of Mus musculus with 4 samples.

Results

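The cytosolic ribosomal protein genes of mouse liver were examined for acetylated chromatin after partial hepatectomy. Members were all gene names in the deposited region lists that carry the Rpl, Rplp or Rps symbol of a ribosomal protein, with names ending in -ps left out. The pattern gave 25 names among 10925 gene names with a listed transcription start site (TSS). Of these, 16 are genes or gene-like copies of the large subunit and 8 are genes of the small subunit. The remaining name, Rps6kl1, encodes a kinase-like protein that is no part of the ribosome, so its values are given apart and counts are stated with and without it.

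Liver of wild-type C57/BL6J mice was profiled for acetylation of histone H3 at lysine 27 (H3K27ac), a mark of active promoters and enhancers, by CUT&Tag. In CUT&Tag an antibody guides a transposase that cuts and tags the DNA around the mark. The group at 12 h after 70% hepatectomy (PHx) and the sham-operated group had 2 libraries each. No time is labelled for sham, and the design text places sham at 0 h, so hepatectomy, time after surgery and time of day cannot be told apart. Whether the libraries of a group came from separate animals is not given in the sources used here.

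The deposited data were 1 region list per group, with 10170 regions covering 197 Mb in PHx and 11602 regions covering 122 Mb in sham. Every region joined at least 1 peak of each library of its group. The lists hold positions and widths but no signal or read count, so the depth is unknown, no spread between replicates can be computed and no test between the groups was possible. The labelled tissue was checked against 15 hepatocyte genes, of which 13 had a listed TSS. Of these, 12 carried a TSS region in PHx and in sham, and Cps1, a urea cycle enzyme, had one in PHx only. Of 5 listed endothelial markers, 4 had a region in PHx only and none in both. Among Kupffer cell markers, 1 of 3 was in PHx only and 2 were in both, and the 1 listed stellate cell marker was in PHx only. Over all names with a listed TSS, 17.8% had a region there in PHx only and 59.1% in both. No lymphocyte or neutrophil marker was listed. The part of cell makeup in the values below was not tested.

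Ribosomal proteins assemble with ribosomal RNA into the small subunit, which reads the mRNA, and the large subunit, which joins amino acids. Their genes are short, carry compact promoters active in nearly all cells, and give rise to many processed pseudogenes. Their mRNAs start with a run of pyrimidines, the terminal oligopyrimidine (TOP) tract, through which the kinase complex mTORC1 controls their translation. Hepatocytes make new ribosomes as they leave quiescence and grow after liver resection, and in mice the deletion of Rps6 in liver is known to block their division after hepatectomy.

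Promoter sequences are shown to let the TOP tract and the factor motifs be read in members of each kind. RefSeq promoter sequences of GRCm38.p6 were found for 18 of the 24 ribosomal protein names, with 24 entries. These coordinates belong to that build, while the regions described below are on GRCm39. Each stretch runs 5′ to 3′ from 70 bases before to 30 bases after the listed start. Capitals mark exact matches to a searched motif or a TOP-like start as defined below. Pyrimidine runs over the start that miss this definition, as in Rps9 and Rpl31, are in lower case. Rps6, Rps9, Rps26 and Rpl31 had a region in PHx only:
Rps6 (chr4:86857338-86857437, - strand): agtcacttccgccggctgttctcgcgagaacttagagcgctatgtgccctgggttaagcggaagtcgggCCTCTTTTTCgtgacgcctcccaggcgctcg
Rps9 (chr7:3703971-3704070, + strand): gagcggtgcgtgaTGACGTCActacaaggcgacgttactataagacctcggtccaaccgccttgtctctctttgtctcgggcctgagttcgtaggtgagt
Rps26 (chr10:128626477-128626576, - strand): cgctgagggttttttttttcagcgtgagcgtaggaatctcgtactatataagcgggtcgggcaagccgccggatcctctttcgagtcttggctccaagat
Rpl31 (chr1:39367781-39367880, + strand): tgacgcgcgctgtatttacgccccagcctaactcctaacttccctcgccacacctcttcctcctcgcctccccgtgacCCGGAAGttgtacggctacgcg
Rpl11, Rpl23 and Rps15a had a region in sham only:
Rpl11 (chr4:136053364-136053463, - strand): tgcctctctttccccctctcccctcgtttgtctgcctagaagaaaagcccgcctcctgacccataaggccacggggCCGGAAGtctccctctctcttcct
Rpl23 (chr11:97782410-97782509, - strand): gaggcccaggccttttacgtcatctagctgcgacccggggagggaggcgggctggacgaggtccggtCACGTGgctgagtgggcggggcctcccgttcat
Rps15a (chr7:118116118-118116217, - strand): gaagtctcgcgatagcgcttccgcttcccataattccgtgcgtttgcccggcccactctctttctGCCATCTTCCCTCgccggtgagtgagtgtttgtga
Rpl14, Rpl28 and Rpl38 had a region in both groups:
Rpl14 (chr9:120571447-120571546, + strand): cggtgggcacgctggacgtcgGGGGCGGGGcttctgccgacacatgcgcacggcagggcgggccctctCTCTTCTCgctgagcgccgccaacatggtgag
Rpl28 (chr7:4792895-4792994, + strand): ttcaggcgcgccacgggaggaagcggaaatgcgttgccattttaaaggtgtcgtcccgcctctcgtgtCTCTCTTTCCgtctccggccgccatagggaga
Rpl38 (chr11:114668510-114668609, + strand): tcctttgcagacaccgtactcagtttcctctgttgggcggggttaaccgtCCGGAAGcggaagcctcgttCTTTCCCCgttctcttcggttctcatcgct

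A TOP-like start was counted where a C, lying at the listed start or at most 2 bases before it, was followed on the sense strand by at least 4 pyrimidines in a run that covers the start. Such a start was present in 6 of the 24 entries (25.0%), those of Rpl14, Rpl28, Rpl34, Rpl38, Rps15a and Rps6. The count depends on where RefSeq lists the start. Runs off that base were not counted, as in Rps26, where one begins just after it. Entries not counted are therefore not shown to lack a TOP tract. It was present in 23.1% of 52 entries of the other RefSeq cytosolic ribosomal protein genes and in 5.44% of all 32851 promoter entries of the same length, so the members' share was near that of the rest of the family. From that C on, the Rps6 run reads CCTCTTTTTC and the Rpl28 run reads CTCTCTTTCC. Capitals of a run begin at that C, and in Rpl14, Rpl28, Rpl38 and Rps15a at least 1 pyrimidine lies directly before it. In Rps15a the run overlaps a reverse match to the YY1 motif, so both lie inside the same stretch of capitals. By this count TOP-like starts occurred in 1 of 4 PHx-only entries, 1 of 3 sham-only entries and 4 of 16 entries of genes found in both groups. With the C allowed anywhere in the run over the start, an alternative chosen after seeing the data, Rps9 and Rpl31 were added, which gave 3 of 4 PHx-only entries and left the other counts as they were. The share was then 33.3% of member entries, beside 25.0% of the entries of the other ribosomal protein genes and 8.02% of all.

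Motifs were searched on both strands over the 300 bases of each entry. The ETS motif CCGGAAG, bound by GABPA, was present in 9 of 24 entries (37.5%), beside 32.7% of the entries of the other ribosomal protein genes and 8.86% of all entries. Rps6, Rps26 and Rpl31 of the PHx-only genes and Rpl11 of the sham-only genes held it; in Rps6 and Rps26 it lay upstream of the printed stretch. The E-box CACGTG, bound by Myc and related factors, was present in 7 entries (29.2%), which overlap in part and belong to Rpl14, Rpl19, Rpl23, Rpl34 and Rps19. It was in 1.92% of the entries of the other ribosomal protein genes and 7.15% of all entries. The NRF1 motif GCATGCGC was in 12.5% of member entries, those of Rpl10a, Rpl37a and Rpl5, in 0% of the entries of the other ribosomal protein genes and in 2.71% of all.

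The remaining motifs were in single member entries or in none, except the CCAAT box. The YY1 motif AAGATGGC was found in Rps15a alone, 4.17% of member entries against 13.5% of the other ribosomal protein entries and 2.75% of all. The CRE TGACGTCA was found in Rps9 alone (4.17%), beside 7.69% of the other ribosomal protein entries and 1.79% of all. The SP1 motif GGGGCGGGG was found in Rpl14 alone (4.17%), beside 13.5% of the other ribosomal protein entries and 11.4% of all. The CCAAT box was in 29.2% of member entries, 28.8% of the other ribosomal protein entries and 37.4% of all. No member held TATAAA on the sense strand within 40 to 20 bases before the start, which 1.91% of all entries did. These matches describe the letters of the entries and say nothing of binding in liver.

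A gene was called marked where a region overlapped its TSS ± 1 kb. Of the 25 names, 20 were marked in PHx (80.0%, exact Clopper-Pearson 95% interval 59.3 to 93.2%) and 17 in sham (68.0%, 46.5 to 85.1%). The intervals cover counting error only and treat the names as independent draws, although each name entered because a region of either list named it. They hold no spread between libraries and do not compare the groups. Without Rps6kl1 the counts were 19 of 24 in PHx and 17 of 24 in sham. Over all gene names 76.9% were marked in PHx and 67.3% in sham, so the members' shares lay near those of the lists as a whole. In every marked ribosomal protein gene the region covered the TSS base itself.

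By group, 14 names were marked in both lists, 6 in PHx only and 3 only in sham, while 2 lacked a region. Over all 10925 names, 59.1% were marked in both, 17.8% in PHx only and 8.19% in sham only; over 7090 protein-coding names the shares were 66.0%, 15.4% and 9.79%. The members stood at 56.0% in both, 24.0% in PHx only and 12.0% in sham only, or 58.3%, 20.8% and 12.5% without Rps6kl1. The 25 names are those that some region names: of 84 cytosolic ribosomal protein genes in RefSeq, 23 (27.4%) were named, while 32.4% of 21900 protein-coding genes were. The other 61 were not analysed here, because a wide region names 1 gene only and no gene positions of the build were used beyond those in the lists. Rpl22, Rpl3, Rpl7, Rpl36a, Rpl39, Rpl10, Rps4x and Rpl26 are among these, so of the planned paralog pairs Rps27l alone had values, without Rps27.

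**Figure D1:**
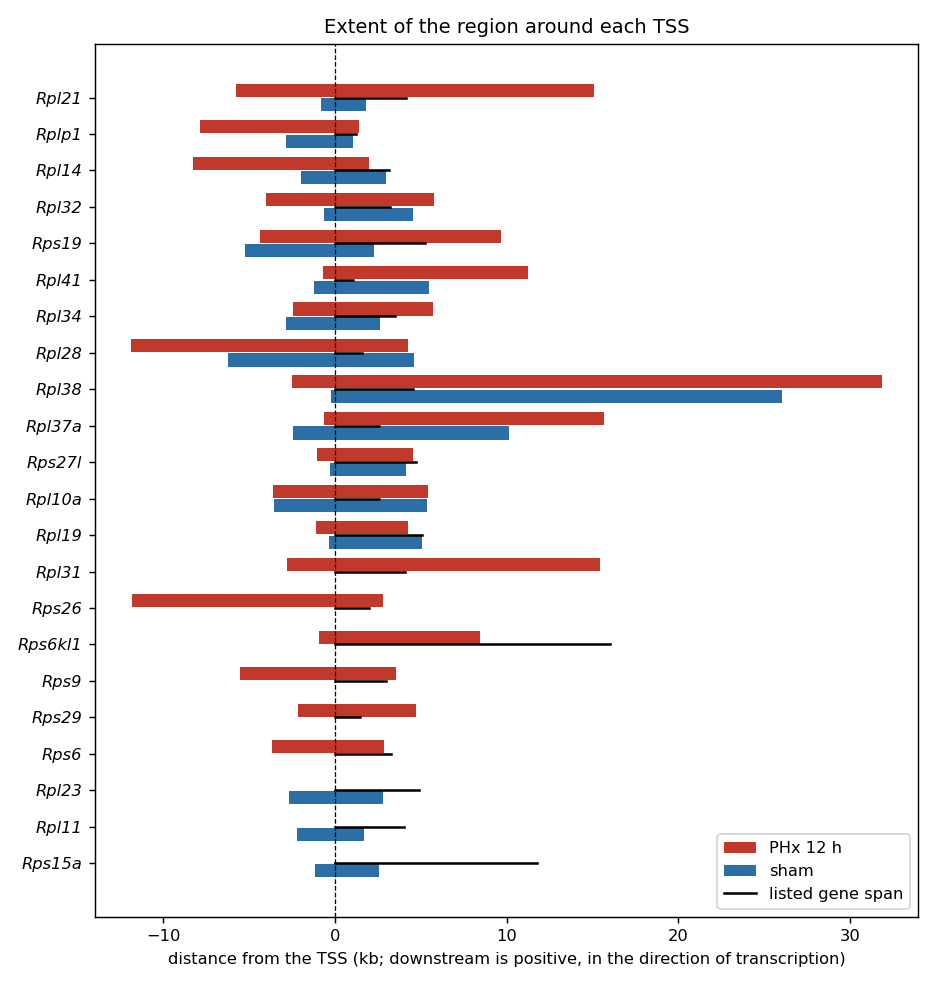
Extent of the H3K27ac region at the TSS of 22 marked names, in kb from the TSS along the direction of transcription, with PHx 12 h above sham and the listed gene span as a black line; a missing bar means that no region overlapped the TSS ± 1 kb. The region of Rpl38 reaches 31853 bp downstream in PHx and 26050 bp in sham, and those of Rpl28 and Rps26 reach over 11 kb upstream in PHx.

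The 11 large-subunit genes marked in both groups ranged from a ratio of 0.988 to one of 8.07, PHx width over sham width. The widest member region in each list was that of Rpl38, whose loss in the mouse alters translation of Hox mRNAs. It measured 34371 bp in PHx (chr11:114556127-114590497) and 26283 bp in sham (chr11:114558412-114584694), a ratio of 1.31. The gene itself spans 4514 bp on the + strand, and the region ran 27340 bp past its end in PHx and 21537 bp in sham. Within its own list the Rpl38 region stood at percentile 88.5 in PHx and 95.9 in sham, so its rank was lower in PHx although its width was larger.

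Rpl21, a structural protein of the large subunit, had the largest ratio and the narrowest region of any member in sham. Its region measured 20895 bp in PHx (chr5:146763909-146784803) and 2588 bp in sham (chr5:146768904-146771491), a ratio of 8.07. In PHx it covered the whole gene, ran 10961 bp past its end and also held the start of LOC115490268, the name the authors gave it. In sham it covered 43.3% of the gene. The PHx region joined 2 peaks of library 2, and of 19 marked ribosomal protein genes in PHx the other 18 had regions of 1 peak per library, as did all 17 in sham. Rpl21 stood at percentile 70.4 of the PHx list and 0.155 of the sham list.

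Rplp1, an acidic protein of the stalk that recruits elongation factors, had a region of 9278 bp in PHx (chr9:61820388-61829665) and 3876 bp in sham (chr9:61820753-61824628), a ratio of 2.39. The difference lay upstream, where the edge was 7873 bp from the TSS in PHx and 2836 bp in sham; the downstream edges lay 365 bp apart. Rpl14 had 10263 bp in PHx (chr9:120392299-120402561) and 4899 bp in sham (chr9:120398625-120403523), a ratio of 2.09. Its upstream edge lay 8284 bp from the TSS in PHx and 1958 bp in sham, while its downstream edge lay closer to the TSS in PHx, at 1978 bp, than in sham, at 2940 bp. Rpl21, Rplp1 and Rpl14 were the members past a ratio of 2.

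Rpl32 measured 9812 bp in PHx (chr6:115779937-115789748) and 5192 bp in sham (chr6:115781134-115786325), a ratio of 1.89, with both edges further out in PHx. Rpl41, one of the shortest proteins known, sits at the interface of the subunits. Its region measured 11965 bp in PHx (chr10:128373799-128385763) and 6726 bp in sham (chr10:128379549-128386274), a ratio of 1.78. The Rpl41 upstream edge lay 726 bp from the TSS in PHx and 1237 bp in sham, and its downstream edge 11238 bp in PHx and 5488 bp in sham. Over a gene of 1059 bp, the region thus ran 10180 bp past the gene end in PHx and 4430 bp in sham.

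The other large-subunit genes differed by less than 1.5-fold. Rpl34 had 8192 bp in PHx and 5502 bp in sham (1.49). Rpl28, which budding yeast lacks, had 16131 bp in PHx (chr7:4784062-4800192) and 10878 bp in sham (chr7:4789708-4800585), a ratio of 1.48. The PHx region of Rpl28 covered the TSS of Il11, a cytokine gene of the interleukin-6 family, and was named after it. Rpl37a, a zinc-binding protein, had 16304 bp in PHx (chr1:72749773-72766076) and 12621 bp in sham (chr1:72747958-72760578), a ratio of 1.29, and its PHx region took the name Gm51632. Rpl10a and Rpl19 had nearly equal widths. Rpl10a, the protein of the L1 stalk at the exit site of tRNA, had 9058 bp in PHx (chr17:28543812-28552869) and 8934 bp in sham (chr17:28543874-28552807), a ratio of 1.01, each edge 62 bp further out in PHx. Rpl19 had 5372 bp in PHx (chr11:97915104-97920475) and 5438 bp in sham (chr11:97915870-97921307), a ratio of 0.988 and the lowest among members. Its PHx region lay 766 bp further upstream and ended 832 bp earlier, so the edges differed although the widths hardly did.

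**Figure D2:**
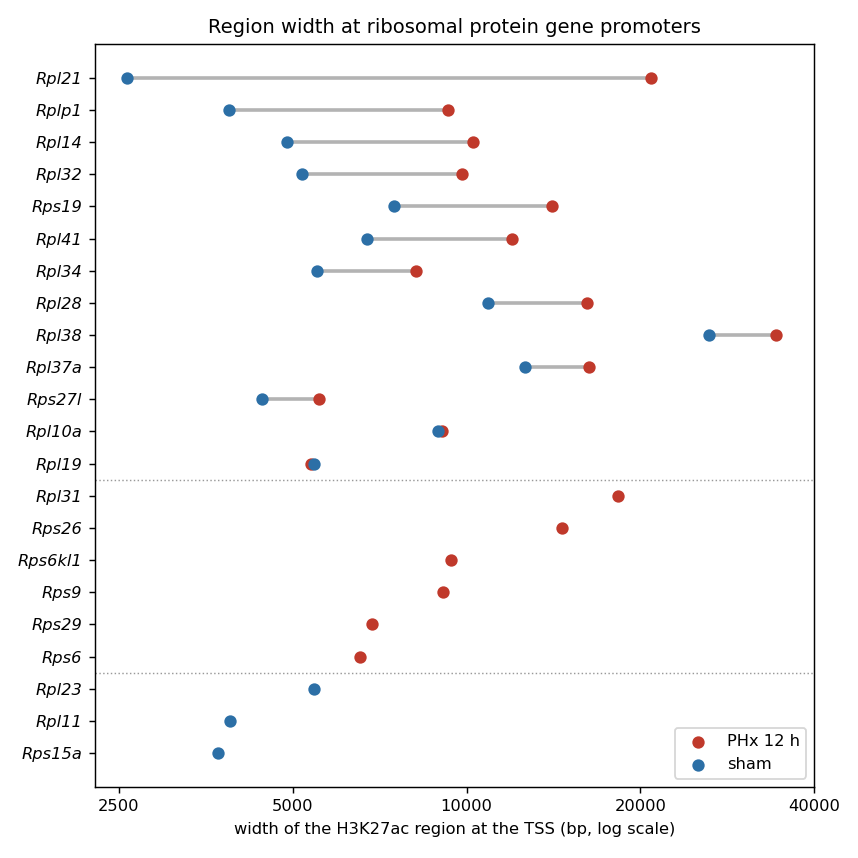
Width of the region at the TSS in bp on a log scale for 22 marked names, with PHx 12 h in red and sham in blue; dotted lines set apart the shared, PHx-only and sham-only names, and each point is 1 merged list without replicate error. Among names marked in both, PHx is to the right of sham in 12 of the 13 drawn, Rpl19 being the exception.

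Of the 8 small-subunit genes, 3 were marked in both groups. Rps19, which is mutated in the human anaemia named after Diamond and Blackfan, had 14072 bp in PHx (chr7:24579637-24593708) and 7496 bp in sham (chr7:24578778-24586273), a ratio of 1.88. Its downstream edge lay 7435 bp further out in PHx, while its upstream edge lay 859 bp closer to the TSS. Rps19 was covered over 100% of its length in PHx and 43.2% in sham.

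Rps27l, a close copy of Rps27 known as a target of the tumour suppressor Trp53, had 5549 bp in PHx (chr9:66850872-66856420) and 4420 bp in sham (chr9:66851627-66856046), a ratio of 1.26. A separate region beyond the 3′ end of the gene was named after Rps27l in both lists. That region measured 11982 bp in PHx (chr9:66858019-66870000) and 4253 bp in sham (chr9:66858132-66862384). Its near edges thus lay close together and the far edge lay further from the gene in PHx. Rps27l has more than 1 listed start, and the most upstream was used.

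Marking in PHx only was found for 4 of 8 small-subunit genes and 1 of 16 large-subunit genes, and marking in sham only for 1 small-subunit and 2 large-subunit genes. Marking in both was found for 3 small-subunit and 11 large-subunit genes. Beside these counts, 17.8% of all names were PHx only, 8.19% sham only and 59.1% shared. No test of the difference between the subunits was made, and 1 gene is 12.5% of the small-subunit genes.

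Rps6, the small-subunit protein phosphorylated by the S6 kinases downstream of mTORC1, had a PHx region of 6529 bp (chr4:86772729-86779257) that covered 88.0% of the gene. In sham no region reached its TSS. The nearest, 8283 bp away and named after Rps6, was 4755 bp wide (chr4:86762567-86767321) and overlapped no PHx region. It was annotated as a 3′ UTR but lay wholly beyond the 3′ end of the listed Rps6 span. Rps26, which lines the exit channel of the mRNA, had a PHx region of 14633 bp (chr10:128459563-128474195). The sham region named after it, 4871 bp wide (chr10:128468956-128473826), lay 6581 bp upstream of the TSS and wholly inside the PHx region. At Rps26 the PHx and sham lists therefore shared acetylation upstream, and the stretch over the gene itself was listed in PHx.

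Rps9, at the entry of the mRNA channel, had a PHx region of 9092 bp (chr7:3701404-3710495), and the nearest sham region, named Mboat7, was 8874 bp from its TSS. Rps29, a zinc-binding protein of the small subunit, had a PHx region of 6873 bp (chr12:69201272-69208144), and the nearest sham region, named Mgat2, was 21654 bp away. Rpl31, near the exit of the peptide tunnel, had the widest PHx-only region, 18250 bp (chr1:39404151-39422400), which was named LOC118567737 and covered its TSS too. Sham had its closest region to the Rpl31 TSS at a distance of 39903 bp, inside an intron of Tbc1d8, and overlapped no PHx region. Rps6kl1, the kinase-like gene, had a PHx region of 9418 bp (chr12:85189571-85198988) and a nearest sham region 33876 bp away.

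The regions of the 3 sham-only genes were no wider than the sham median of the marked members, 5444 bp. Rpl11, which with Rpl5 binds the smallest ribosomal RNA of the large subunit and can inhibit the ubiquitin ligase Mdm2, had 3889 bp in sham (chr4:135779047-135782935). In PHx the nearest region was 16392 bp from its TSS. Rpl23, another protein known to bind Mdm2, had 5444 bp in sham (chr11:97670482-97675925). In PHx the nearest region to the Rpl23 TSS, 40637 bp wide and named Lasp1, had its near edge 13236 bp away. Rps15a, which binds the ribosomal RNA of the small subunit, had 3721 bp in sham (chr7:117712807-117716527), and the nearest PHx region, named Arl6ip1, was 7196 bp away. In the width order of the sham list, Rpl11 stood at percentile 3.59, Rpl23 at 19.1 and Rps15a at 2.72. The median over all ribosomal protein genes marked in sham was 19.1. Low ranks were not particular to the sham-only genes. Of the PHx-only genes, Rps6 stood at percentile 4.93 of the PHx list, Rps29 at 6.41 and Rps9 at 18.0. Rps26 stood at 50.4 and Rpl31 at 63.7.

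A gene missing from 1 list may still have had a peak in 1 library of that group. Peaks are numbered along the genome within each library, so numbers missing between flanking regions count peaks of that library in the stretch that entered no region. In sham, library 2 had such unused numbers around Rps26 (2), Rps29 (1), Rps6 (3) and Rpl31 (1), and library 1 had them around Rpl31 (3) and Rps9 (1). Both sham libraries had 2 around Rps6kl1. In PHx, library 2 had them around Rpl11 (2), Rpl23 (1) and Rps15a (2), and library 1 had none there. The stretches ran from 39261 bp around Rps26 to 4140795 bp around Rps29, so the position of such a peak relative to the gene is not known. No PHx-only or sham-only member (0 of 6 and 0 of 3) lay in a stretch free of unused numbers in the other group, beside 293 of 1947 PHx-only and 144 of 895 sham-only names among all genes.

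Rpl5 and the pseudogene Rpl6l were marked in neither list. A region upstream of Rpl5 was present in both, with 6614 bp in PHx (chr5:108034186-108040799) and 6873 bp in sham (chr5:108034042-108040914), 7589 bp from the TSS in PHx and 7474 bp in sham. The region nearest to Rpl6l, annotated as intergenic, measured 14451 bp in PHx and 6428 bp in sham. No unused peak number fell around Rpl5 or Rpl6l in either PHx library, while sham had 4 in library 1 and 1 in library 2 around Rpl5 and 1 in library 1 around Rpl6l.

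The marked members had narrow regions by the standard of each list. Their median width was 10037.5 bp in PHx (quartiles 8841.5 to 15007.5; 10263 without Rps6kl1) and 5444 bp in sham (4420 to 7496). Over all marked names the medians were 17158.5 bp in PHx and 8534.5 bp in sham. Of the 19 ribosomal protein genes marked in PHx, 16 were below that median, as were 13 of the 17 in sham. By rank among all regions of the list, 9 of 19 in PHx and 10 of 17 in sham were in the lowest quartile. Rpl38, Rpl21 and Rpl31 lay above the median of all marked names in PHx, and Rpl38, Rpl37a, Rpl28 and Rpl10a did in sham.

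For the 14 genes marked in both, the median ratio was 1.63 (quartiles 1.30 to 1.89), beside 1.74 over the 6459 names marked in both. The region was wider in PHx in 13 of 14 (92.9%), beside 91.5% of all names. A ratio of at least 1.5, the size taken as a called difference, was reached by 7 of 14 (50.0%), beside 60.2% of all names, and a ratio of at most 0.667 by 0 of 14, beside 1.38%. The share wider in PHx was thus close to that of all names. By percentile within each list, the median of the 14 genes was 30.9 in PHx and 25.1 in sham. Over the 6459 names marked in both it was 62.8 in PHx and 57.6 in sham. The median difference per gene, PHx minus sham, was -2.22 points over the 14 genes, and 7 of 14 ranked higher in PHx. Over the 6459 names that difference was -0.735 points, and 3087 of 6459 ranked higher in PHx.

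**Figure D3:**
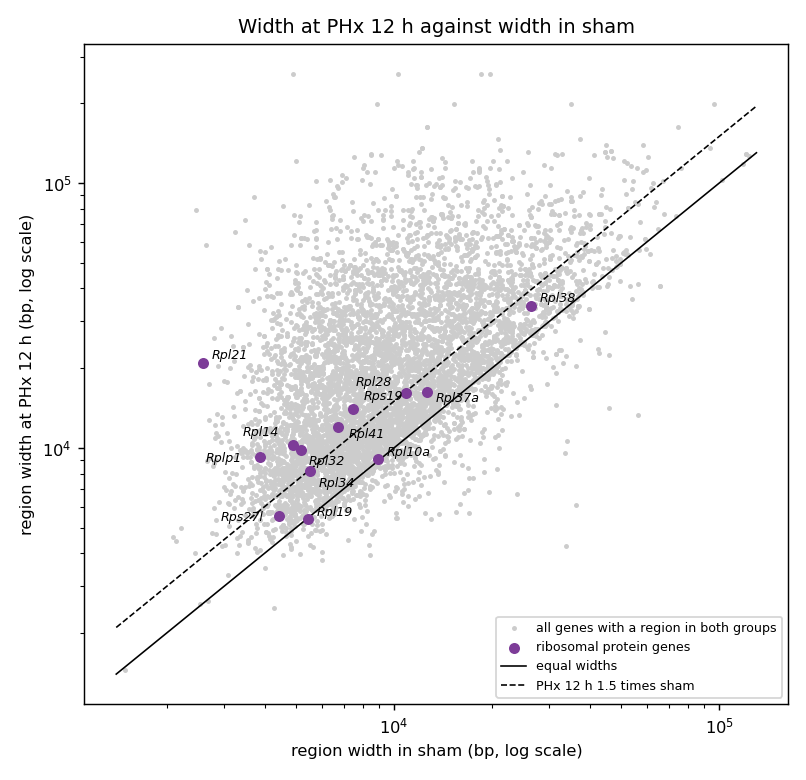
Region width at PHx 12 h (vertical, bp, log scale) against sham (horizontal, bp, log scale) for 6459 names marked in both groups, with 13 ribosomal protein genes in purple, the solid line at equal widths and the dashed line at a ratio of 1.5. Rpl21 lies far above the dashed line, and Rpl10a and Rpl19 lie at the solid line.

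Ratios were lower at larger sham widths over all names, so members were set beside names of like sham width. In the lowest quartile of sham widths (1489 to 6288 bp), the median ratio was 1.89 over 7 members and 2.14 over all names. In the next quartile (6290 to 9071 bp) it was 1.83 over 4 members and 1.79 over all. In the third quartile (9072 to 14336 bp), Rpl28 and Rpl37a had a median of 1.39, beside 1.65 over all. In the top quartile Rpl38 had 1.31, beside 1.44 over all.

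The edges were measured on each side of the TSS. Over the 14 genes the median edge difference, PHx minus sham, was 760.5 bp upstream and 2152 bp downstream, beside 1783 bp and 2579 bp over all names. Both edges lay further out in PHx in 6 of 14 genes (42.9%), beside 68.6% of all names. In 5 genes (35.7%, beside 16.1%) the downstream edge alone lay further out, and in 3 genes (21.4%, beside 12.9%) the upstream edge alone did. In these 8 genes the opposite edge lay inside the sham edge, by up to 1815 bp, in Rpl37a. The whole gene was covered in 15 of the 19 marked ribosomal protein genes in PHx and in 8 of the 17 in sham. These counts cover partly different genes, and no such share was computed over all names. Over all marked names the median width was 17158.5 bp in PHx and 8534.5 bp in sham.

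Mitochondrial ribosomal protein and proteasome genes were set beside the members. Over all names 17.8% were in PHx only and 8.19% in sham only. Of 30 named mitochondrial ribosomal protein genes, 13 were marked in both, 6 in PHx only and 7 only in sham, with 4 unmarked and a median ratio of 1.71. Of 21 proteasome subunit genes, 11 were marked in both, 4 in PHx only and 4 only in sham, with 2 unmarked and a median ratio of 1.42. Median widths were 12384 bp in PHx and 6615.5 bp in sham for mitochondrial ribosomal proteins, and 9445 bp in PHx and 5497 bp in sham for the proteasome. Both edges lay further out in PHx in 84.6% of the mitochondrial and 81.8% of the proteasome genes marked in both, against 42.9% of the cytosolic ones. Of the lists described below, they did in 4 of 10 TOP mRNA genes, 3 of 9 promoter-binding factors and 3 of 6 ribosome assembly factors. Counts were higher in 13 of 16 initiation factors, 6 of 10 genes of mTORC1 and TOP control and 2 of 3 small nucleolar RNA hosts. Among the hepatocyte genes it was 9 of 12. A low share was thus not particular to the cytosolic ribosomal protein genes, and no test of these differences was made. The share of RefSeq genes named by a region was 38.5% for the mitochondrial ribosome and 53.8% for the proteasome, against 27.4% for the cytosolic one.

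**Figure D4:**
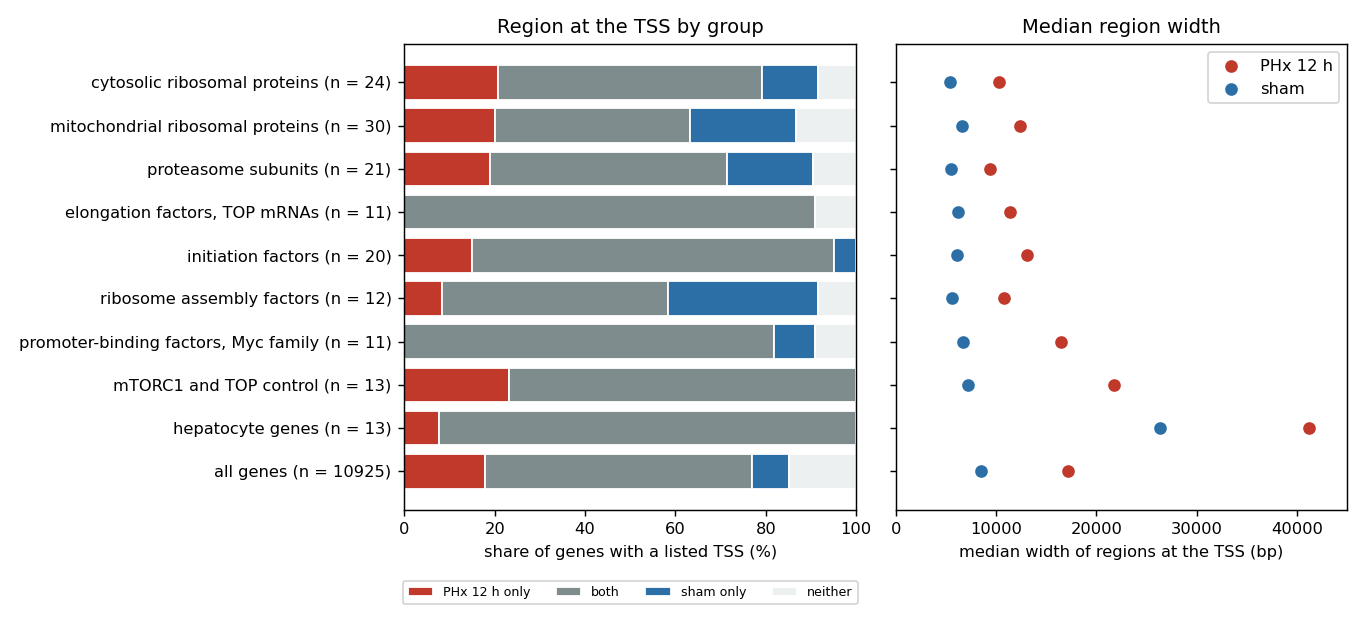
Left, share of genes with a listed TSS that were marked at PHx 12 h alone, shared, found in sham alone or unmarked, in percent, for the cytosolic ribosomal proteins without Rps6kl1 and for other gene lists. Right, median width of the regions at the TSS in bp, PHx 12 h in red and sham in blue; the cytosolic ribosomal proteins have 10263 bp in PHx and 5444 bp in sham, and hepatocyte genes the widest medians shown.

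Other genes of translation were followed as fixed lists. A listed TSS was found for 11 of 19 TOP mRNA genes and 20 of 28 initiation factors. Over all names 17.8% were in PHx only and 8.19% in sham only. Fau, a fusion gene that yields a small-subunit protein, had 40841 bp in PHx and 31255 bp in sham (1.31). Of 11 listed TOP mRNA genes, mostly elongation and initiation factors, 10 were marked in both and Eif3h in neither, with a median ratio of 1.64. Eef1d, an elongation factor subunit, had 50279 bp in PHx and 6544 bp in sham (7.68). Pabpc1, the poly(A) binding protein, had 5377 bp in PHx and 5449 bp in sham (0.987). Eef2, the translocase, had 10032 bp in PHx and 7610 bp in sham (1.32). Of 20 listed initiation factors, 16 were marked in both, 3 in PHx only and 1 in sham only, with a median ratio of 1.53. Eif3g (19583 bp), Eif4h (18494 bp) and Eif2s2 (8604 bp) were in PHx only and Eif2b5 (6269 bp) in sham only. Eif3k had the largest ratio, with 101369 bp in PHx and 15359 bp in sham (6.6), and Eif5a the smallest, with 7006 bp in PHx and 7157 bp in sham (0.979).

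Of 12 listed ribosome assembly factors, 6 were marked in both, 1 in PHx only and 4 only in sham, with 1 unmarked and a median ratio of 1.87. Pes1 (6026 bp) was in PHx only, and its partner Bop1 (6850 bp) was in sham only with Ddx21 (4346 bp), Lyar (4283 bp) and Nop2 (3971 bp). Nob1, a nuclease that trims the RNA of the small subunit, had 20591 bp in PHx and 3599 bp in sham (5.72). Bysl, a factor of small-subunit assembly, had 8788 bp in PHx and 8960 bp in sham (0.981). Of 5 listed genes of RNA polymerase I and ribosomal RNA synthesis, Polr1c (12634 bp), Taf1a (11066 bp), Gtf3a (9583 bp) and Polr1a (9447 bp) were in PHx only. Ubtf was in both, with 19902 bp in PHx and 20134 bp in sham (0.988). Only 5 of the 15 genes in this list and 12 of the 40 assembly factors had a listed TSS. Over all names 17.8% were in PHx only and 8.19% in sham only. Unused peak numbers were not counted for these lists.

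Of 11 listed factors reported to bind such promoters, including the Myc family, 9 were marked in both, with a median ratio of 1.92. Sp1 had 22674 bp in PHx and 3989 bp in sham (5.68), and Tbpl1, a paralog of the TATA-binding protein, had 5805 bp in PHx and 4732 bp in sham (1.23). Mycn (4507 bp) was in sham only and Zbtb40 in neither. Of 13 listed genes of mTORC1 and TOP control, 10 were in both, with a median ratio of 1.88. Mtor (29358 bp), Rptor (22734 bp) and Rragc (8682 bp), which encode the kinase, its scaffold and a Rag GTPase, were in PHx only. Akt1s1 had 109700 bp in PHx and 24871 bp in sham (4.41), and Tsc1 had 18004 bp in PHx and 17726 bp in sham (1.02). Of 5 listed hosts of small nucleolar RNAs, Snhg16 (22176 bp) and Snhg7 (5059 bp) were in PHx only. Genes with a listed TSS were 11 of 15 promoter-binding factors, 13 of 18 genes of mTORC1 and TOP control and 5 of 14 hosts. Over all names 17.8% were in PHx only and 8.19% in sham only. Snhg3 had 34379 bp in PHx and 5288 bp in sham (6.5), and Snhg8 had 5854 bp in PHx and 7145 bp in sham (0.819).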

How the data were processed

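H3K27ac CUT&Tag of mouse liver was sequenced as 150 bp paired-end reads, per the labels' protocols. Bowtie2, SEACR, ChIPseeker and DiffBind are listed, per the submitters' processing notes, with the builds GRCm39 and mm39, names of the same assembly; roles, versions, thresholds and the handling of reads that fit both a gene and its pseudogenes are not given there. The authors deposited 1 table per group whose values are positions and widths of merged regions in bp, with the assigned gene, per the file headers. Each region runs over all peaks it joins, so broader peak calls alone give wider regions.

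As TSS, the outermost upstream start given for a gene by either table was taken, and the widest region overlapping TSS ± 1 kb was used. Width ratios are PHx over sham, and 1.5-fold was the size called. Names and biotypes came from a RefSeq table of GRCm38.p6, in which 264 names found no match. The shares of members marked in each group have exact Clopper-Pearson 95% intervals, which hold no spread between libraries. Regions, widths and motifs were computed with Python 3.11.15, pandas 2.3.3 and scipy 1.17.1, tested on simulated tables. The members and lists were chosen with earlier results of these data known.

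The values of 1 member are not reported here, though counts and medians include it. Every other member could be named; full values were given for one-group members, the 6 largest and 6 smallest ratios and the 5 widest regions per group, and from each other list for one-group genes (up to 4) and the largest and smallest ratio. Eef2, Eif3h, Zbtb40 and Cps1 were named after their values were seen. Alternatives were the TSS window, the choice of start, assigned regions alone, summed widths, 1-to-1 pairs, ranks, a 2-fold size and unused peak numbers; leaving out Rps6kl1 and a wider definition of the TOP-like start were added after seeing the data. Motif positions refer to sequences of the other build and were not placed on the regions.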

Additional observations from a re-analysis of the deposited data

How the results depend on the processing

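No paired analysis was possible because each group was deposited as 1 merged list, and for the same reason no replicate could be left out. Windows of 0 and 3 kb, the start listed most often, shared regions counted once, summed widths, 1-to-1 pairs (also those holding no other member) and leaving out Rps6kl1 (chosen after seeing the data) each kept the counts and medians within 1.5 times the reported ones. With only regions assigned to the gene by name, 6 members were in sham only and the median downstream edge difference was 1197 bp, since 4 PHx regions carry a neighbour's name. In ranks, the median percentile of marked members was 24.1 in PHx and 19.1 in sham, and the median difference of genes marked in both reversed to -2.22 points. With the C of a TOP-like start allowed anywhere in its run (chosen after seeing the data), 8 member entries held one in place of 6, and 3 PHx-only entries in place of 1. At 2-fold, 3 members were past the size called. Requiring no unused peak number of the other group left 0 PHx-only and 0 sham-only members. The depth is unknown, so a gene missing from a list may have been marked below the calling threshold.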

Other observations

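Pseudogene names ending in -ps numbered 21 in the lists. Of these, 3 had a region in PHx and sham alike, 3 in PHx alone (Rpl36-ps12, Rps15a-ps6 and Rpl29-ps6), 1 in sham only (Rpl30-ps7) and 14 in neither. Over all names 17.8% were in PHx only and 8.19% in sham only. Rps2-ps9 had 46634 bp in PHx and 7064 bp in sham, a ratio of 6.6. Rpl27a-ps4 had 22518 bp in PHx and 10363 bp in sham (2.17), and Rpl30-ps6 had 8131 bp in PHx and 5203 bp in sham (1.56).

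Kinase genes with similar symbols were also named. Rps6kb1, which encodes an S6 kinase, had 9666 bp in PHx and 6638 bp in sham (1.46), and Rps6ka4 had 6489 bp in sham only.

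Of the regions named after members, 3 of 19 in PHx and 8 of 25 in sham lay away from any TSS. The share of such regions over each whole list is not given here, so these counts do not compare the groups. A distal sham region named after Rpl11, 5324 bp wide, lay inside a PHx region of 74417 bp named Gm42329.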
